A study of Drosophila melanogaster with 6 samples.

Results

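The CYP4 clan is a branch of the cytochrome P450 superfamily, and its genes were followed here in male flies that had fed on methamphetamine (METH). The members were taken by name: each probe set (a group of oligonucleotides that interrogates one transcript) paired by the platform annotation with a single gene whose symbol begins with Cyp4 and a letter, or with Cyp311, Cyp312, Cyp313, Cyp316 or Cyp318. This gave 32 genes, each with 1 probe set, out of 18769 probe sets compared, and Cyp49a1, which belongs to the mitochondrial clan, was left out. The flies were virgin w1118 males, aged 5 days, and both diets carried the label blue diet. For 24 h they fed on the standard diet without METH (control) or on the same diet with 0.6% (w/v) METH. Each diet had 3 samples of 20 whole flies, one Affymetrix Drosophila Genome 2.0 array per sample, and the labels call the samples biological replicates.

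P450s are heme enzymes of the endoplasmic reticulum or the mitochondrion that add oxygen to a substrate with electrons passed on from NADPH. In mammals the CYP4 family is best known for hydroxylating the far end of fatty acids. In insects the clan has expanded, and its members take part in making the hydrocarbons that waterproof the cuticle and in metabolizing foreign compounds and odorants. For many of the Drosophila members no substrate is established.

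The arrays ranged from 50.6 to 69.1 in median signal, and their number limits the precision. Values are given as a percentage of the signal of the actin probe set AFFX-Dros-ACTIN_M_r on the same array, the reference that the methods of the study name. This reference itself gave signals of 922 to 1218 under the control diet and 700.0 to 868 under METH, so dividing by it moves every probe set upward on the METH arrays relative to the control arrays. Over all probe sets the log2 fold change, METH minus control, had a median of 0.24 with this reference and -0.13 with the signals as deposited. Adjusted p values under 0.05 were found for 158 probe sets that were higher and 78 that were lower, against 131 and 169 when arrays were centred on their median and 114 and 381 with the signals as deposited. RNA of whole flies mixes all tissues, and fewer cells of a type cannot be told apart from less RNA per cell. Yolk and chorion genes summed to 11.0 to 17.4% of the actin reference over all 6 arrays, against 853 to 1568% for 5 testis genes, and none of these female or testis genes passed (limma; 2 testis genes higher at an unadjusted p under 0.05).

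With the actin reference, 5 of the 32 genes rose in METH-treated flies and none fell (limma, adjusted p under 0.05 over all probe sets). The risers were Cyp4e2, Cyp4d14, Cyp4e3, Cyp4p1 and Cyp4d2. These 5 made up 15.6% of the members, where 0.842% of all probe sets were called higher and 0.416% lower. An unadjusted p under 0.05 was reached by 8 members that were higher and 1 that was lower, beside 9.38% and 2.12% of all probe sets. For 9 members all METH arrays exceeded all control arrays and for 1 they were all lower, against 15.7% and 2.58% of all probe sets, and for 22 members the diets overlapped. The median log2 fold change of the members was 0.25, beside 0.24 for all probe sets. A positive value was found for 25 members and 74.5% of all probe sets, and with the signals as deposited for 11 members and 30.6%. The same 5 genes passed the threshold under each of the 4 other scalings and with low signals floored. Under each of those 4 scalings Cyp4ad1 was called lower, beside 169 to 381 of all probe sets. None of the 5 passed when limma's spread was not allowed to follow the signal level, with adjusted p values of 0.0559 to 0.288. Cyp4p1 did not pass without control replicate 3, and Cyp4d2 did not pass at the p and fold cutoff that the study's methods give.

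**Figure D1:**
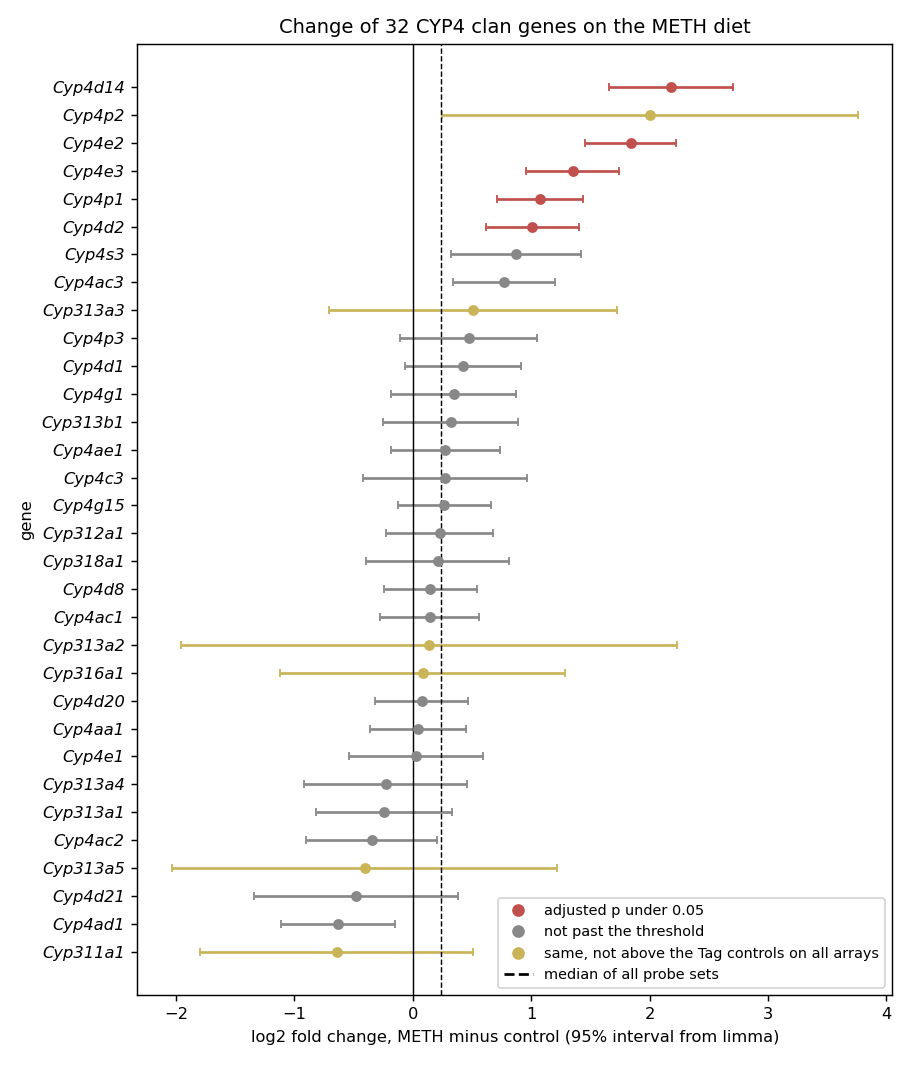
Log2 fold change (METH minus control, x axis) of the 32 CYP4 clan genes with 95% intervals from limma; red marks an adjusted p under 0.05, ochre marks genes not above the array's Tag controls on all 6 arrays, and the dashed line is the median of all probe sets (0.24). The 5 red genes lie between 1.01 and 2.18, and most of the others lie around the dashed line.

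Cyp4e2 had the smallest adjusted p of the clan. Its control arrays read 87.9, 121 and 92.4% of the actin reference, and its METH arrays 345, 340.1 and 384%. The diets were far apart and the METH arrays differed little from each other. The mean went from 100.5 ± 18.0 to 356 ± 23.8% (SD, n = 3 each), a log2 fold change of 1.84 (standard error 0.18, 95% interval 1.45 to 2.23, adjusted p = 7.5e-05). Cyp4e2 is also the member that the study lists among transcripts picked on these same samples, so its rise is not independent evidence.

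Cyp4d14, of the Cyp4d subfamily, had the largest fitted rise. It read 8.25, 15.9 and 12.3% of the actin reference on the control arrays and 41.3, 56.3 and 64.6% on the METH arrays. The lowest METH array was above the highest control array by a wide margin, although both diets varied. The mean went from 12.2 ± 3.84 to 54.1 ± 11.8% (SD, n = 3 each), or 4.53-fold (log2 fold change 2.18, standard error 0.24, 95% interval 1.66 to 2.70, adjusted p = 0.000195).

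Cyp4e3 belongs to the subfamily of Cyp4e2 but lies on another chromosome arm, 2L in place of 2R. Its control arrays were tight at 13.7, 12.0 and 13.3% of the actin reference, and its METH arrays read 34.7, 27.3 and 38.3%. Again the diets did not overlap. The log2 fold change was 1.35 (standard error 0.18, 95% interval 0.96 to 1.74, adjusted p = 0.00106), from 13.0 ± 0.897 to 33.4 ± 5.62% (SD, n = 3 each).

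Cyp4p1 and Cyp4d2 each rose about 2-fold. Cyp4p1 read 104, 123 and 96.8% of the actin reference on the control arrays and 239, 232 and 207% on the METH arrays. The spread within a diet was small beside the gap between them, and the log2 fold change was 1.07 (standard error 0.17, 95% interval 0.71 to 1.43, adjusted p = 0.00359). Cyp4d2 read 38.5, 48.5 and 52.8% on the control arrays and 83.2, 84.4 and 114% on the METH arrays. METH replicate 3 was the highest of them, and the log2 fold change was 1.01 (standard error 0.18, 95% interval 0.61 to 1.40, adjusted p = 0.0108). With the signals as deposited, the log2 fold changes of Cyp4p1 and Cyp4d2 were 0.70 and 0.63.

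**Figure D2:**
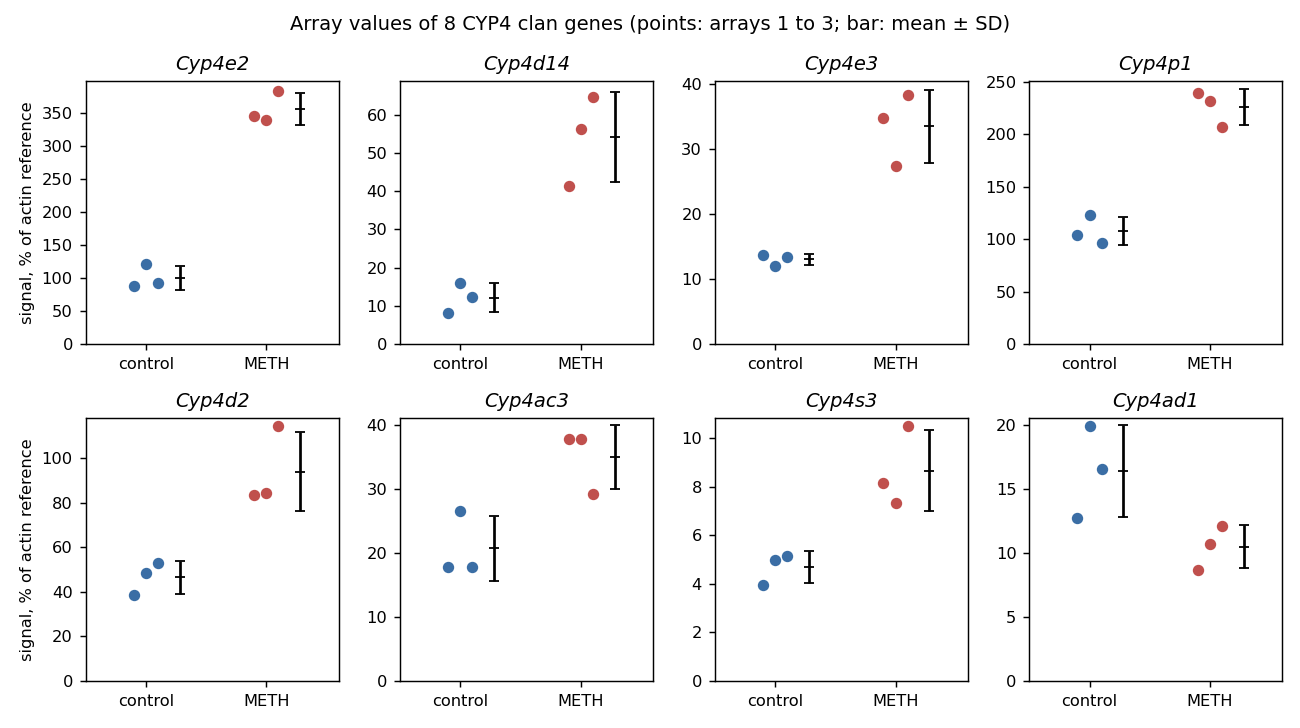
Signal as a percentage of the actin reference (y axis, from 0) on each of the 3 control (blue) and 3 METH (red) arrays for 8 CYP4 clan genes, with the mean and SD of each diet in black. The 8 genes are the members at an unadjusted p under 0.05 (limma) other than Cyp4p2, a choice that favours separate diets. The arrays of the 2 diets do not overlap for any of the 8, and Cyp4ad1 alone is lower on METH, 8.69 to 12.1 against 12.7 to 20.0. Of all probe sets, 15.7% have all METH arrays above all control arrays and 2.58% below.

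A further 4 members had an unadjusted p under 0.05 and did not pass after adjustment. Cyp4ac3 went from 20.7 ± 5.03 to 34.9 ± 4.98% relative to actin (SD, n = 3 each), with a log2 fold change of 0.77 and an adjusted p of 0.11. It passed when control replicate 2 was left out. As deposited, its signals overlapped between the diets (175 to 245 for control, 204 to 329 for METH). With the 4 other scalings its log2 fold change was 0.39 to 0.58 (limma, adjusted p = 0.188 to 0.541). Cyp4s3 went from 4.70 ± 0.654 to 8.67 ± 1.66% relative to actin (SD, n = 3 each; log2 fold change 0.87, adjusted p = 0.183). Cyp4p2 gave signals of 1.76, 0.634 and 1.49 on the control arrays and 4.89, 5.45 and 1.84 on the METH arrays (adjusted p = 0.414). All were below the brightest Tag control, a probe set for a sequence that flies lack, of their array, so no fold change is given, although Cyp4p2 is counted among the 8 higher members of low unadjusted p and the 9 whose METH arrays were all higher.

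The fourth was Cyp4ad1, the single member of low p that was lower on METH. Its control arrays read 12.7, 20.0 and 16.5% of the actin reference and its METH arrays 8.69, 10.7 and 12.1%. The diets did not overlap, but the highest METH array was close to the lowest control array, and the log2 fold change was -0.63 (standard error 0.22, 95% interval -1.11 to -0.15, adjusted p = 0.325). The call depends on the scaling. As deposited, the signals were 155, 184 and 163 on the control arrays and 72.3, 93.3 and 84.7 on the METH arrays. With the 4 other scalings the log2 fold change was -1.01 to -0.82 and passed each time (adjusted p = 0.0121 to 0.0363).

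Several members sit side by side on a chromosome, and their fold changes are given here in gene order. Members that are not neighbours were not compared in the same way. In the annotation used for gene order (RefSeq, Release 6), 20 members lie in 7 clusters, defined here as members separated by no more than 5 other genes. Cyp4ad1, Cyp4e2 and Cyp4e1 follow each other on arm 2R, where 1 microRNA gene is annotated between the last pair. Of these, Cyp4e2 rose, Cyp4ad1 had a log2 fold change of -0.63, and Cyp4e1 one of 0.03 (95% interval -0.54 to 0.60). Cyp4e1 read 13.1, 19.9 and 19.5% of the actin reference on the control arrays and 12.2, 17.1 and 25.7% on the METH arrays, so its diets overlapped fully.

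On the X chromosome Cyp4d1, Cyp4d14, Cyp4d2 and Cyp4ae1 form a cluster in which the inner pair rose. Cyp4d1 had a log2 fold change of 0.42 (95% interval -0.07 to 0.91) and Cyp4ae1 one of 0.28 (-0.19 to 0.74), and neither passed (adjusted p = 0.453 and 0.554). Between Cyp4d1 and Cyp4d14 lie CG3630 and ND-B14.5A, which encodes a subunit of respiratory complex I. Their log2 fold changes were -0.12 and 0.25 (adjusted p = 0.702 and 0.575). The rise on the X chromosome thus passed the threshold at the P450 genes Cyp4d14 and Cyp4d2 and at none of the other measured genes of the cluster.

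On arm 2L, Cyp4ac1, Cyp4ac2 and Cyp4ac3 had log2 fold changes of 0.14, -0.35 and 0.77, none of which passed. Cyp4p2, Cyp4p1 and Cyp4p3 follow each other on arm 2R, where Cyp4p1 passed with 1.07, Cyp4p3 had 0.47 and did not pass, and Cyp4p2 was below the Tag controls. Cyp4p3 varied widely within a diet, from 14.7 to 31.0% of the actin reference on the control arrays and from 21.5 to 33.0% on the METH arrays.

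The ratio of a pair of neighbours on one array is the same whichever single factor the array is scaled by (quantile normalization uses no single factor), and it was compared between diets for all 13 neighbouring pairs. For 7 pairs the diets did not overlap, and the share among other pairs of genes was not computed. Most of the 7 hold Cyp4e2, Cyp4d14 or Cyp4d2, which passed by themselves, and several pairs share a gene. The exact permutation test (two-sided) gave p = 0.1 for each of the 7 pairs, the smallest that 3 arrays against 3 allow. Over the 13 pairs the adjusted p was 0.186, so the design could not reach 0.05. The change of Cyp4ad1 minus that of Cyp4e2 was -2.47 on the log2 scale (pooled SD 0.17), the widest gap among the pairs. Cyp4e2 exceeded Cyp4e1 by 1.81 (pooled SD 0.38), Cyp4d14 exceeded Cyp4d2 by 1.17 (pooled SD 0.28), and Cyp4d2 exceeded Cyp4ae1 by 0.73 (pooled SD 0.19). Cyp4d1 minus Cyp4d14 was -1.76 (pooled SD 0.32) and Cyp4ac2 minus Cyp4ac3 was -1.12 (pooled SD 0.44), while Cyp4ac1 exceeded Cyp4ac2 by 0.49 (pooled SD 0.19). For the other 6 pairs, such as Cyp4p1 and Cyp4p3 (difference 0.60, pooled SD 0.35, exact p = 0.2), the diets overlapped.

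**Figure D3:**
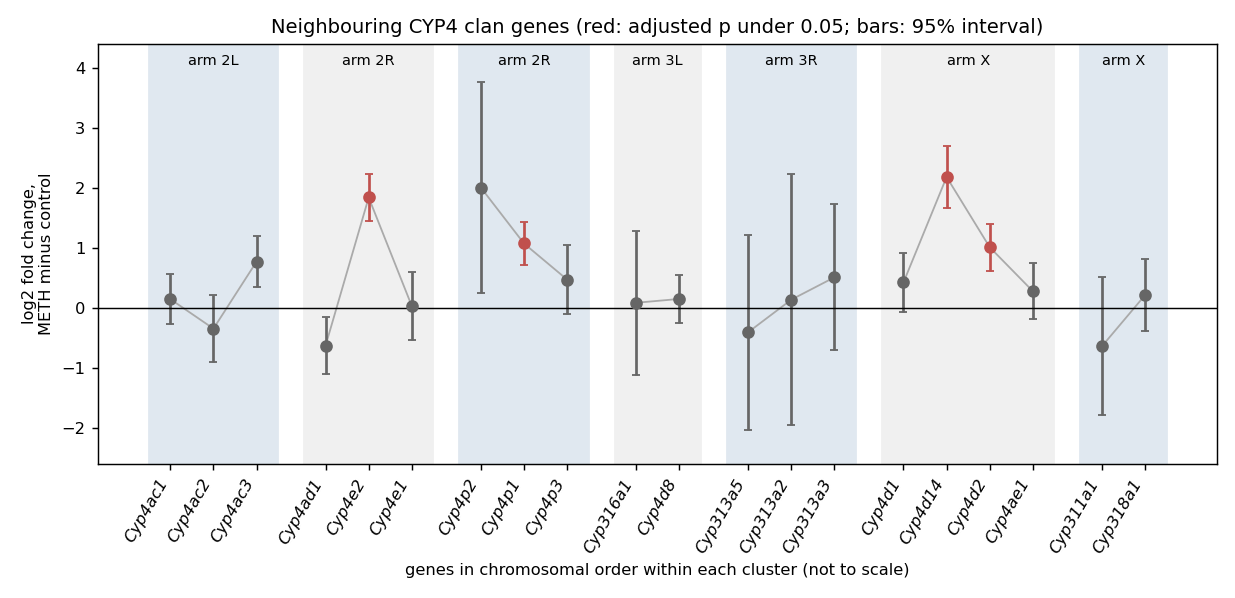
Log2 fold change (METH minus control, y axis) with 95% intervals from limma for the 20 CYP4 clan genes that lie in 7 chromosomal clusters, in gene order (x axis, not to scale); red marks an adjusted p under 0.05. In the cluster of Cyp4e2 the flanking genes lie at -0.63 and 0.03, and in the X cluster Cyp4d14 and Cyp4d2 stand above Cyp4d1 and Cyp4ae1. Points of Cyp4p2, Cyp316a1, Cyp313a5 and Cyp313a2 rest on signals below the Tag controls.

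Cyp4g1 makes the last step of cuticular hydrocarbon synthesis in the oenocytes, the removal of the aldehyde carbon. It was among the 5 brightest of the 18769 probe sets on every array and the brightest on 3 of the 6. Its deposited signals were 10370, 10559 and 10375 on the control arrays and 10526, 10246 and 9844 on the METH arrays, and as deposited the diets overlapped. Relative to actin they did not, at 852 to 1145% for control and 1180 to 1406% for METH. All METH arrays lay above all control arrays for 15.7% of all probe sets. With the actin reference Cyp4g1 went from 1017 ± 150.1 to 1284 ± 114% (SD, n = 3 each), with a log2 fold change of 0.34 (95% interval -0.18 to 0.87, adjusted p = 0.521), and -0.03 with the signals as deposited. Its signal was 92.2 to 100% of the brightest probe set on each array, and the part of this ceiling in the small difference was not tested.

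Other genes of hydrocarbon synthesis gave no call with the actin reference. Of 17 genes listed for the route 15 were measured, and none passed (limma). An unadjusted p under 0.05 was reached by 2 that were higher and none that was lower, beside 9.38% and 2.12% of all probe sets. Their median log2 fold change was 0.20. With the signals as deposited 2 of them were called lower, beside 381 of all probe sets. With 75th percentile centring and with quantile normalization 1 was called lower, beside 211 and 264. A higher call came for 1 with the replicate number as a block (1033 of all probe sets) and for 1 without control replicate 2 (143). The lowest log2 fold change was that of bond (-0.35, limma, adjusted p = 0.468), and 11 of the 15 had a positive one. The smallest adjusted p belonged to FASN3, a fatty acid synthase (log2 fold change 0.73, adjusted p = 0.188). Desat1, the main desaturase of the route, had 0.22 (adjusted p = 0.617). Cyt-b5, a partner that hands electrons to P450s, had a log2 fold change of 0.64 (adjusted p = 0.34). Cyt-b5-r (cytochrome b5-related), listed with it, had one of 0.59 (adjusted p = 0.393). Neither passed, although 1 of them did after quantile normalization. All METH arrays lay above all control arrays for both, as they did for 15.7% of all probe sets. No probe set was paired with Cpr, the NADPH-dependent reductase, in the annotation used.

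Cyp4g15, a relative of Cyp4g1 found in the nervous system, read 35.4, 45.1 and 43.8% of the actin reference on the control arrays and 42.1, 46.6 and 61.8% on the METH arrays. The diets overlapped and the log2 fold change was 0.27 (95% interval -0.13 to 0.66). Cyp4d21, also called sxe1 (sex-specific enzyme 1), is enriched in the male head and bears on courtship. It was the most variable of the members that exceeded the Tag controls on all arrays, with 16.2, 30.6 and 46.1% on the control arrays and 10.2, 26.3 and 31.2% on the METH arrays. The diets overlapped over much of their range, and its log2 fold change of -0.48 had a 95% interval of -1.34 to 0.38. Relative to actin, Cyp4d20 was the least variable, at 11.8 to 12.7% in control flies and 12.7 to 13.4% in METH-treated flies (log2 fold change 0.07, 95% interval -0.32 to 0.47). Its deposited signals varied more, at 109 to 155 for control and 88.9 to 112 for METH.

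The remaining Cyp4 genes lay near the median of all probe sets. The log2 fold change was 0.15 for Cyp4d8, 0.27 for Cyp4c3 and 0.04 for Cyp4aa1. Relative to actin, Cyp4d8 went from 19.3 ± 2.64 to 21.4 ± 2.55% and Cyp4aa1 from 28.3 ± 5.26 to 29.1 ± 4.50% (SD, n = 3 each). Of the 27 members that did not pass, 16 had a 95% interval within 1 unit of 0 on the log2 scale, these 3 genes among them. The other 11 had an interval that reached beyond 1 unit from 0.

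None of the 10 members named Cyp311 to Cyp318 passed the threshold in either direction, and all of them overlapped between the diets. Of the 10, 5 exceeded the Tag controls on all arrays, Cyp312a1 and Cyp313a1 being the brightest. Cyp312a1 read 133, 229 and 183% of the actin reference on the control arrays and 202, 189 and 234% on the METH arrays (log2 fold change 0.23, 95% interval -0.22 to 0.68). Cyp313a1 read 71.8, 157 and 128% and then 73.8, 121 and 97.8% (log2 fold change -0.24, 95% interval -0.82 to 0.33). Relative to actin, control replicate 1 was the lowest of all arrays in both genes, and its actin signal was the highest (1218). As deposited, control replicate 1 was still the lowest for Cyp312a1 (1620). For Cyp313a1 it gave 874, above METH replicates 1 and 3 (613 and 684). Cyp313b1 had a log2 fold change of 0.32, Cyp318a1 one of 0.21 and Cyp313a4 one of -0.23, each from signals of 21.4 to 57.3.

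The other 5 were dim. Cyp313a2, Cyp313a5 and Cyp316a1 did not exceed the brightest Tag control on any array, as was also true of Cyp4p2, and Cyp311a1 and Cyp313a3 exceeded it on 3 and 1 of the 6 arrays. Signals of these 6 members ran from 0.634 to 24.7, where the brightest Tag control gave 8.81 to 18.6. Their standard errors were 0.53 to 0.97, against 0.17 to 0.40 for the 26 brighter members, and a change of 1 log2 unit was not detectable at that precision. Cyp311a1, an enzyme of the anterior midgut, had a log2 fold change of -0.64 with a 95% interval of -1.79 to 0.51.

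Against the other P450 clans, the CYP4 clan held fewer calls than the CYP3 clan, the branch of the Cyp6 and Cyp9 genes. Of 37 genes of the CYP3 clan 16 were higher and none lower, or 43.2%, with a median log2 fold change of 0.52. The mitochondrial clan had 2 of 11 higher, or 18.2% (Cyp12d1-d and Cyp12a5), beside 15.6% in the CYP4 clan and 0.842% of all probe sets. The CYP2 clan had none of 6 (none at an unadjusted p under 0.05). These counts are given side by side and the difference between clans was not tested. Beside the dim CYP4 members, they include genes that exceeded the brightest Tag control on no array. These were Cyp303a1, spo and spok of the CYP2 clan, dib and sad of the mitochondrial clan, and Cyp6a16 of the CYP3 clan. The largest fitted rise was 3.90 in the CYP3 clan and 2.18 in the CYP4 clan on the log2 scale.

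**Figure D4:**
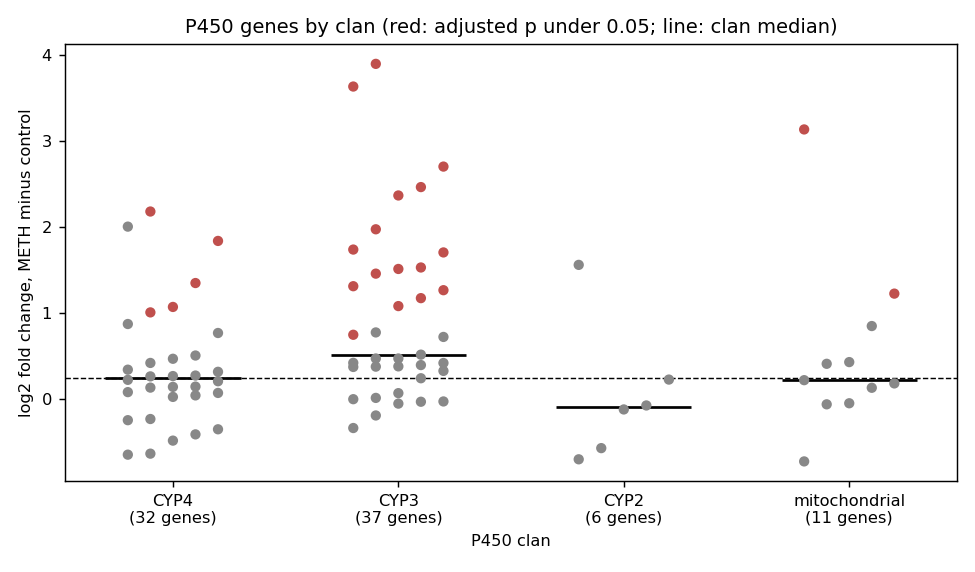
Log2 fold change (METH minus control, y axis) of each P450 gene by clan (x axis); red marks an adjusted p under 0.05, the short line is the clan's median and the dashed line the median of all probe sets. Red genes number 5 of 32 in the CYP4 clan, 16 of 37 in the CYP3 clan, none of 6 in the CYP2 clan and 2 of 11 in the mitochondrial clan, and the CYP4 median (0.25) lies on the dashed line. The highest grey point of the CYP4 clan is Cyp4p2, whose signals were below the Tag controls.

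Some markers of the midgut and the accessory gland also differed between the diets. Of 7 midgut markers, mostly digestive enzymes, 3 were lower and none higher at an adjusted p under 0.05 (Jon25Bi, Jon25Bii and mag). Of all probe sets, 0.416% were called lower and 0.842% higher. Summed over the 7, the deposited signal was 16350 to 18590 for control flies and 11620 to 12080 for METH-treated flies, or 1343 to 2016 and 1338 to 1726% of the actin reference. Of 4 accessory gland markers 1 was lower, Acp26Aa. None of 2 tubule, 4 fat body or 3 oenocyte markers passed (limma; 1 oenocyte marker higher at an unadjusted p under 0.05). Summed, the oenocyte markers reached 661 to 762% of the actin reference in control flies and 711 to 945% in METH-treated flies. The part of these shifts in the changes of the CYP4 clan genes was not tested.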

How the data were processed

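Whole w1118 males were profiled on 6 arrays, 3 per diet. The authors used GCOS 1.4 to quantify the images. What they deposited is a linear intensity (signal) for every probe set, neither logged nor divided by actin. A scaling to a common target is not given in the sources used here, and detection calls were not used here.

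From these values, log2 ratios of each signal to that of AFFX-Dros-ACTIN_M_r on the same array were compared with limma 3.58.1 (R 4.3.3; lmFit and eBayes with a trend of spread on level), METH minus control, two-sided, with Benjamini-Hochberg adjustment over all 18769 probe sets left after removal of 183 AFFX control probe sets, and a threshold of 0.05. limma replaced SAM, the test of the study's methods. Intervals are limma's 95% intervals. Probe sets paired with 1 gene numbered 13647 and kept the platform annotation's gene, with symbols updated through gene identifiers. In comparison lists a gene is read at its brightest probe set. Every member is named: full values go to those at an adjusted p under 0.05, and the level of detail falls with p. The members and lists were chosen with earlier results of these data known. The functions were tested on simulated data before use. Alternatives were other scalings, a filter or floor on dim signals, no trend, the replicate number as a block, a t-test with the cutoff of the study's results (p below 0.008, change above 1.5-fold) and, added after seeing the data, with that of its methods (p of 0.005 or less), leaving out each array, and averaging probe sets that share a gene. Plots used Python 3.11.15 and matplotlib 3.10.9.

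Replicate numbers recur in both diets. After removal of diet means, arrays with the same number correlated at 0.022, 0.041 and 0.064, and arrays with different numbers at -0.078 to 0.039. The correlations were all weak, and the main comparison did not take the numbers to pair samples.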

Additional observations from a re-analysis of the deposited data

How the results depend on the processing

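The same 5 genes were higher with 4 other scalings, with dim probe sets left out, with low signals floored, with a gene's probe sets averaged and with the t-test at p below 0.008. At the methods' cutoff of 0.005, chosen after seeing the data, 4 members were higher (Cyp4d2 lost), and 173 probe sets were higher and 48 lower overall. The t-test called 2 probe sets higher after Benjamini-Hochberg adjustment, none of them a member. Without a trend of spread on level, 0 members were higher, and 17 probe sets were higher and 7 lower overall. Cyp4ad1 was the 1 member called lower with signals as deposited, median centring, 75th percentile centring or quantile normalization, and all probe sets called lower numbered 381, 169, 211 and 264. Leaving out each array in turn gave 4 to 6 members higher (Cyp4p1 lost without control replicate 3, Cyp4ac3 gained without control replicate 2), 0 lower, 103 to 143 probe sets higher (103 without control replicate 3) and 56 to 92 lower.

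With the replicate number as a block, 8 members were higher (Cyp4ac3, Cyp4s3 and Cyp4p3 added) and 2 lower (Cyp4ad1 and Cyp4d21), and 1033 probe sets were higher and 260 lower. The correlations do not settle whether the numbers pair the samples. METH replicates 2 and 3 correlated best with the control of their own number (0.041 and 0.064), as did each control replicate with its METH counterpart. METH replicate 1 correlated best with control replicate 2 (0.039, against 0.022 with control replicate 1).

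Directions reversed for 16 members, none with an unadjusted p under 0.05. As deposited, the log2 fold change was -0.15 for Cyp312a1, -0.24 for Cyp313a2, -0.057 for Cyp313b1, -0.29 for Cyp316a1, -0.17 for Cyp318a1, -0.33 for Cyp4aa1, -0.23 for Cyp4ac1, -0.10 for Cyp4ae1, -0.11 for Cyp4c3, -0.30 for Cyp4d20, -0.23 for Cyp4d8, -0.35 for Cyp4e1, -0.033 for Cyp4g1 and -0.11 for Cyp4g15. With 75th percentile centring it was -0.0006 for Cyp312a1, -0.091 for Cyp313a2, -0.14 for Cyp316a1, -0.017 for Cyp318a1, -0.18 for Cyp4aa1, -0.0825 for Cyp4ac1, -0.15 for Cyp4d20, -0.079 for Cyp4d8 and -0.20 for Cyp4e1. With quantile normalization it was -0.037 for Cyp312a1, -0.041 for Cyp313a2, -0.11 for Cyp316a1, -0.18 for Cyp4aa1, -0.074 for Cyp4ac1, -0.13 for Cyp4d20, -0.077 for Cyp4d8 and -0.20 for Cyp4e1. With median centring it was -0.055 for Cyp313a2, -0.11 for Cyp316a1, -0.15 for Cyp4aa1, -0.047 for Cyp4ac1, -0.12 for Cyp4d20, -0.0435 for Cyp4d8 and -0.16 for Cyp4e1. Apart from quantile normalization, a change of scaling shifts all probe sets alike. Leaving out arrays gave -0.57 to 0.88 for Cyp313a2, -0.88 to 0.23 for Cyp313a5, -0.23 to 0.34 for Cyp316a1, -0.10 to 0.17 for Cyp4aa1, -0.031 to 0.28 for Cyp4ac1, -0.88 to 0.016 for Cyp4d21 and -0.25 to 0.29 for Cyp4e1. Low signal over background limits the 6 dim members, Cyp313a2, Cyp313a5 and Cyp316a1 among them.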
